A study of Hordeum vulgare with 28 samples.

Results

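The leaves compared were barley (Hordeum vulgare) leaves 24 h after wounding with sandpaper (W24, 4 samples) and leaves 2 h after the same wounding (W2, 4 samples). These 8 samples were taken by their labels from the 28 of the series, and the comparison ran over every gene that was counted often enough to test. All plants were of the cultivar Morex and 30 days old, grown with 16 h of light and 8 h of darkness, and leaf number 5 was used. W24 and W2 leaves were wounded on both faces with 60 grit sandpaper, which the labels describe as rubbing and the study's methods as pressing, and each library came from the treated section of a single leaf. Control leaves (C, 4 samples) had the wax barriers of the experiment and no wounding. The remaining groups had adult females of the grass specialist mite Oligonychus pratensis (O24 and O2) or of the generalist mite Tetranychus urticae (T24 and T2), with 200 mites per leaf section at 24 h and 400 at 2 h. All leaves were harvested together, so the hour of the day at which the leaf was wounded differed between W24 and W2 and cannot be told apart from the time since wounding. A single C group served both time points. The comparison asks which parts of the early wound response had subsided and which had appeared or persisted a day later.

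Wounding a leaf opens cells, and within minutes calcium signals, protein kinases and the hormone jasmonate switch on defence genes in the damaged tissue. Jasmonate is made from membrane lipids by a chain of enzymes that includes allene oxide synthase, and it acts by removing JAZ proteins, which repress the response and are themselves among its target genes. Damaged leaves also lose water, call on chaperones that refold proteins, and commonly lower transcripts for photosynthesis.

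The deposited table gave read counts for 25592 genes. Total counts, in units of 1000000, were 21.6 to 31.4 in the W24 libraries, 23.05 to 38.3 in the W2 libraries and 22.8 to 35.2 in the C libraries. Values are given as CPM (counts per 1000000 counts, scaled by TMM factors so that libraries of different composition can be compared). CPM is not corrected for gene length, so levels are compared between samples and not between genes. Barley identifiers carry no names here, and a gene is called by the name of its Arabidopsis partner in the study's list of reciprocal best BLASTP matches, of which 1998 pairs were at hand. Roles are those known in Arabidopsis.

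The W24 profiles stood closer to the control profile than the W2 profiles did. The distance of a sample was taken as its mean absolute difference in log2 CPM from the average C sample over the 16948 genes tested. This distance was 0.427, 0.421, 0.477 and 0.420 in the W24 samples, against 0.865, 1.05, 0.990 and 0.965 in the W2 samples, while each C sample lay 0.231 to 0.298 from the other C samples. The W24 and W2 ranges did not overlap, and both lay above the C range. The difference between the W24 and W2 means was -0.53 (exact two-sided permutation test, p = 0.0286, the smallest that 4 against 4 samples allow; 0.0571 after adjustment over 6 library measures). Pairs of W24 samples differed from each other by 0.251 to 0.305 and pairs of W2 samples by 0.291 to 0.476, and a W24 sample differed from a W2 sample by 0.747 to 0.937.

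**Figure D1:**
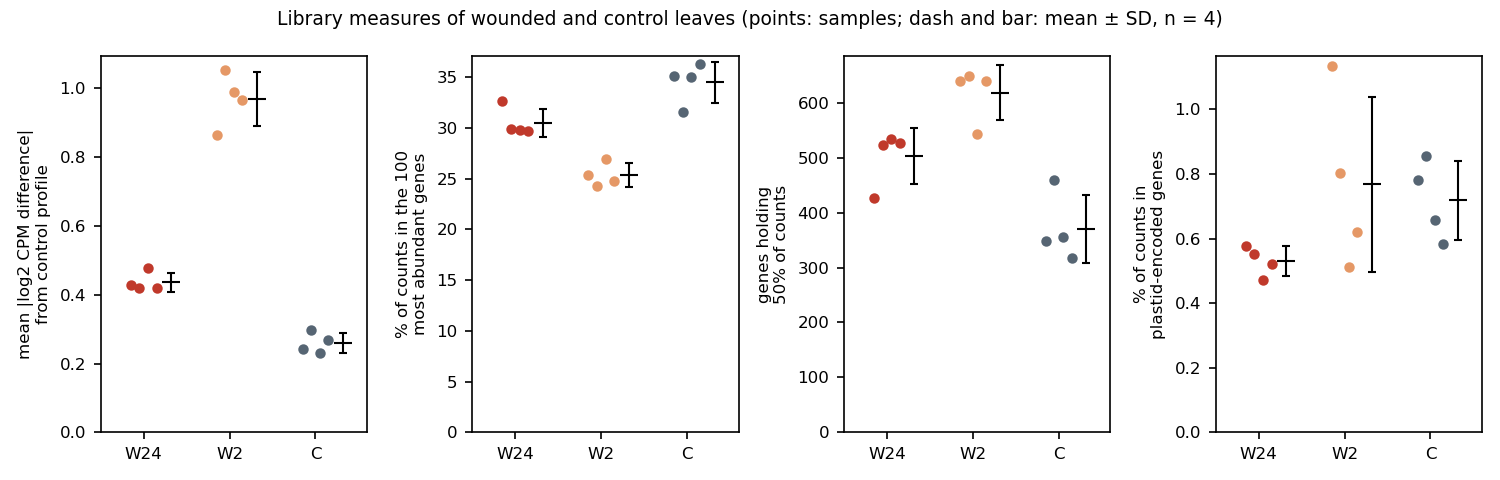
Library measures in W24, W2 and C leaves: the distance from the control profile in log2 CPM, the percent of counts in the 100 most abundant genes, the number of genes that hold 50% of the counts, and the percent of counts in plastid-encoded genes; points are samples, dash and bar are mean ± SD (n = 4). The W24 samples sit between the W2 and C samples in the first panel, at 0.420 to 0.477.

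Counts were spread over more genes in W2 leaves than in W24 leaves. The 100 most abundant genes of a library took 30.5 ± 1.41% of the counts in W24 leaves, 25.4 ± 1.16% in W2 leaves and 34.5 ± 2.03% in C leaves (SD, n = 4). The number of genes that together held 50% of the counts was 502.5 ± 50.6 in W24 leaves, 618 ± 49.98 in W2 leaves and 371 ± 61.7 in C leaves. Both measures separated W24 from W2 without overlap (exact permutation p = 0.0286 each, adjusted 0.0571). The number of genes with any count (19009 to 19358 in W24, 18618 to 19389 in W2) and the total count overlapped (exact permutation p = 0.371 and p = 0.629).

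Between W24 and W2, 4559 of the 16948 genes tested (26.9%) were called at an adjusted p under 0.01 and more than a 2-fold change (edgeR quasi-likelihood test, Benjamini-Hochberg). The 4 W24 and 4 W2 CPM values did not overlap in 56.7% of the genes tested. Of the called genes, 1946 rose (11.5% of the genes tested) and 2613 fell (15.4%). The fallen genes changed more: their median log2 fold change was -1.68, against 1.41 for the risen genes, and 401 fell while 114 rose by more than 8-fold. Genes with no count in any W24 library made up 8 of the fallen genes, and genes with no count in any W2 library made up 11 of the risen genes. The split depended on the scaling: 42.7% of the called genes were higher in W24 with TMM factors, 51.2% with library size alone and 56.2% with upper-quartile factors, which moved the median log2 fold change of all genes tested to 0.15 and 0.22, against 0.04 with TMM. Fold changes below are those with TMM.

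The genes that fell between 2 h and 24 h held a sizeable part of the W2 transcriptome. They took 7.72 ± 0.33% of the counts in W24 leaves, 25.9 ± 2.86% in W2 leaves and 6.46 ± 0.40% in C leaves (SD, n = 4). The genes that rose took 10.1 ± 0.58% of the counts in W24 leaves, 3.42 ± 0.48% in W2 leaves and 9.31 ± 0.33% in C leaves. The W24 and W2 values chose these genes and are a description. The C means did not enter that comparison, although the C libraries shared its filter, scaling and estimate of spread. The C shares lay near those of W24 leaves for both sets.

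Set against the same C libraries, W24 differed in 1017 genes (6.0% of those tested), of which 970 were higher (5.72%) and 47 lower (0.277%), and W2 differed in 5395 genes (31.8%), of which 3266 were higher (19.3%) and 2129 lower (12.6%). The genes still called against C at 24 h were thus nearly all above the C level.

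**Figure D2:**
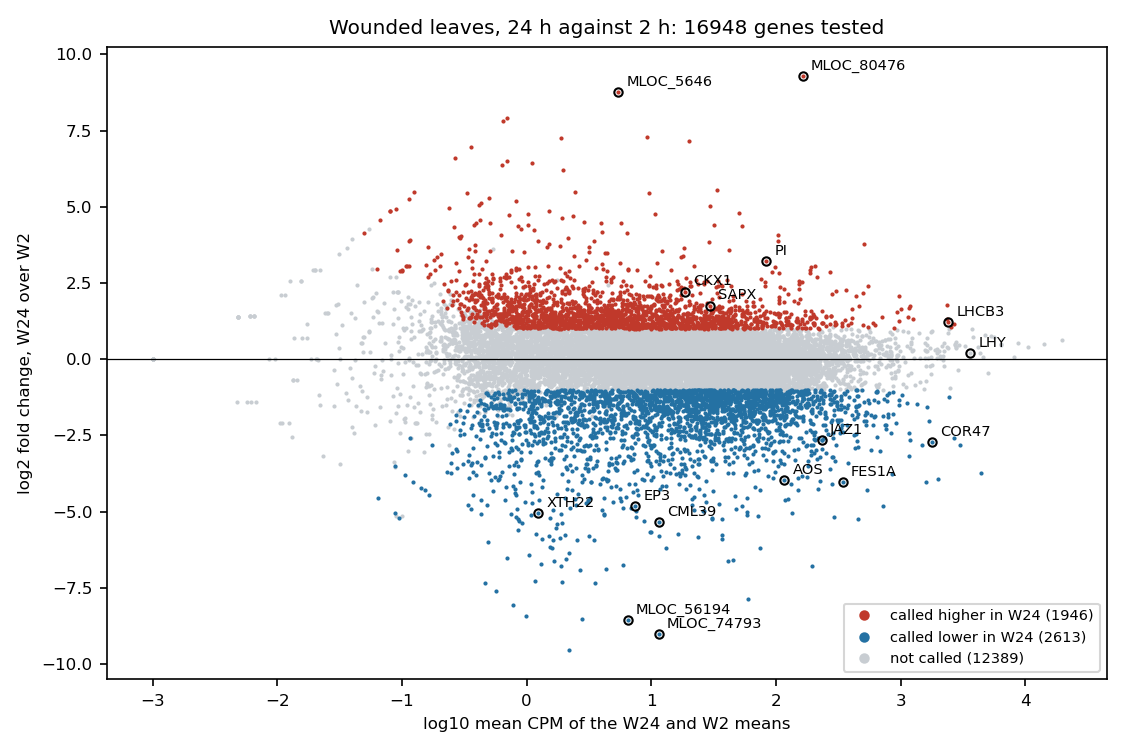
Each point is a gene tested: the log2 fold change of W24 over W2 (y axis) against the log10 of its mean CPM (x axis), with called genes in colour and some named genes ringed. The largest falls and rises reach about 9 on the log2 scale.

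Among the 182 members of 18 gene lists drawn up by function, 164 were counted often enough to test, 8 were called higher (4.88%) and 30 were called lower (18.3%) in W24 than in W2, beside 11.5% and 15.4% of all genes tested. A further list held 67 plastid-encoded genes.

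**Figure D3:**
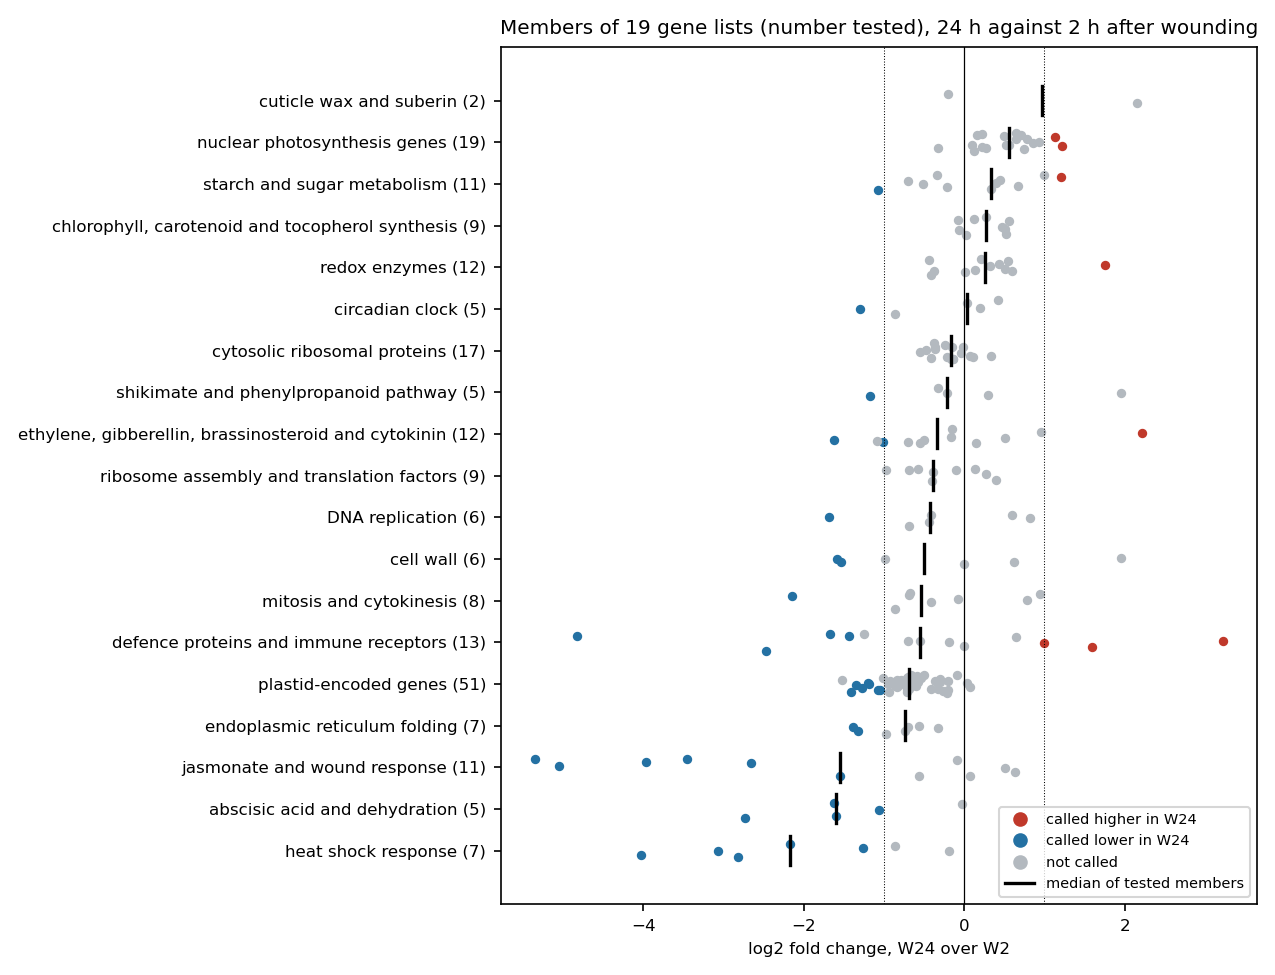
Members of the 19 gene lists as points, placed by their log2 fold change of W24 over W2 (x axis), with the list and its number of tested members on the y axis; red and blue points were called, grey points were not, and black bars are medians. Heat shock, dehydration and jasmonate genes lie lowest, with medians of -2.17, -1.59 and -1.54, and nuclear photosynthesis genes have a median of 0.55.

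Several transcripts of the jasmonate and wound response list fell, among them AOS of jasmonate synthesis. All 11 members of this list were tested: 6 were called lower (54.5%, beside 15.4% of all genes tested) and 0 higher (beside 11.5%). The other 5 were not called, and the median log2 fold change was -1.54. Positive log2 fold changes of up to 0.63 were found for 3 members. Of these, 2 had an adjusted p under 0.01 (18.2% of the list, beside 27.7% of all genes tested). AOS, the gene of allene oxide synthase, had 17.7, 16.5, 12.6 and 9.53 CPM in the W24 leaves, against 98.5, 289.9, 308 and 183 CPM in the W2 leaves and 1.29, 3.58, 0.803 and 0.710 CPM in the C leaves. The 3 groups did not overlap, with W24 between W2 and C, and the W2 leaf of replicate 1 was the lowest of its group. The log2 fold change of W24 over W2 was -3.97 ± 0.50 (± SE; adjusted p = 2.39e-07, edgeR), and W24 was still 3.10 above C on the log2 scale (adjusted p = 2.93e-04). JAZ1, a repressor of jasmonate signalling that jasmonate itself induces, had 67.5, 60.9, 67.0 and 59.8 CPM in W24 leaves, against 258, 507, 462 and 380.1 CPM in W2 leaves and 19.7, 26.9, 23.4 and 18.7 CPM in C leaves. It showed the same order of groups without overlap, with a log2 fold change of -2.66 ± 0.24 (adjusted p = 3.72e-10), and it too remained called above C, by 1.52 on the log2 scale.

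The largest falls of this list were those of a calcium sensor and a wall enzyme. CML39, a calmodulin-like protein, had 0.845, 0.230, 0.933 and 0.279 CPM in W24 leaves, against 8.16, 26.2, 37.0 and 18.9 CPM in W2 leaves, and at most 0.0682 CPM in C leaves. XTH22, the touch-induced xyloglucan endotransglucosylase also known as TCH4, had 0.0402, 0.0767, 0.133 and 0.0309 CPM in W24 leaves, against 1.46, 2.38, 3.74 and 1.99 CPM in W2 leaves. Both were far lower in every W24 leaf than in any W2 leaf, with log2 fold changes of -5.35 ± 0.46 (adjusted p = 1.69e-10) and -5.06 ± 0.55 (adjusted p = 2.70e-08). ERF4, an ethylene response factor that represses transcription, fell by 3.45 on the log2 scale to 1.85, 1.65, 1.78 and 2.44 CPM in W24 leaves, against 12.4, 23.4, 29.0 and 20.4 CPM in W2 leaves. MPK3, a mitogen-activated protein kinase of stress signalling, fell by 1.54 and had a mean of 48.5 ± 7.04 CPM in W24 leaves, 141 ± 40.3 CPM in W2 leaves and 24.8 ± 2.34 CPM in C leaves (SD, n = 4). ACX4 and ECH2, enzymes of peroxisomal fatty acid oxidation, were not called, with log2 fold changes of 0.07 and 0.51.

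Most heat shock and co-chaperone transcripts fell. Of the 7 tested members (list of 9), 5 were called lower (71.4%, beside 15.4% of all genes tested) and 0 higher (beside 11.5%). The median was -2.17. FES1A, a nucleotide exchange factor of HSP70, had 41.2, 38.6, 42.3 and 36.6 CPM in W24 leaves, against 441, 783, 885 and 472 CPM in W2 leaves and 37.6, 39.2, 36.9 and 34.0 CPM in C leaves. W24 and C leaves overlapped, and every W2 leaf lay far above both. The log2 fold change of W24 over W2 was -4.02 ± 0.16 (adjusted p = 1.94e-16), and that of W24 over C was 0.10 (adjusted p = 0.675). DNAJ, a J-domain co-chaperone, had 19.3, 19.9, 21.8 and 20.2 CPM in W24 leaves, against 107, 199.9, 226 and 147 CPM in W2 leaves and 19.3, 20.4, 31.1 and 27.9 CPM in C leaves, with W24 inside the C range and a log2 fold change of W24 over W2 of -3.06 ± 0.20 (adjusted p = 1.05e-12). AHA1, an activator of HSP90, fell by 1.26, the small heat shock protein HSP17.6II by 2.82 and the coactivator MBF1C by 2.17. HSP17.6II and MBF1C remained called above C at 24 h, by 3.78 and 2.28 on the log2 scale, at means of 0.757 ± 0.580 and 0.642 ± 0.32 CPM in W24 leaves.

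Most dehydration genes fell too. The abscisic acid and dehydration list had 7 members, of which 5 were tested. Of these, 4 were called lower (80%, beside 15.4% of all genes tested) and 0 higher (beside 11.5%), with a median of -1.59. COR47, a dehydrin, had 525, 407, 495 and 446 CPM in W24 leaves, against 2384, 3169, 3951 and 2893 CPM in W2 leaves and 332, 175, 385 and 312 CPM in C leaves. It fell by 2.73 ± 0.24 on the log2 scale (adjusted p = 3.72e-10), and its W24 leaves lay above all C leaves although that difference was not called (0.64 on the log2 scale, adjusted p = 0.0503). SAG21, a late embryogenesis abundant protein, averaged 45.6 ± 4.20 CPM in W24 leaves, 139.7 ± 44.5 CPM in W2 leaves and 64.7 ± 19 CPM in C leaves (SD, n = 4), a log2 fold change of -1.62 ± 0.22 of W24 over W2 (adjusted p = 5.14e-07). ABF3, a transcription factor of abscisic acid responses, fell by 1.59 and stayed called above C, by 1.82, while TIL, a temperature-induced lipocalin, fell by 1.07. OST1, a kinase of abscisic acid signalling, had a log2 fold change of -0.03 and was not called. TIL lay close to the fold limit and was not called with upper-quartile factors (-0.88), with library size alone (-0.95), without W24 replicate 4 (-0.98) or without W2 replicate 3 (-0.99).

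**Figure D4:**
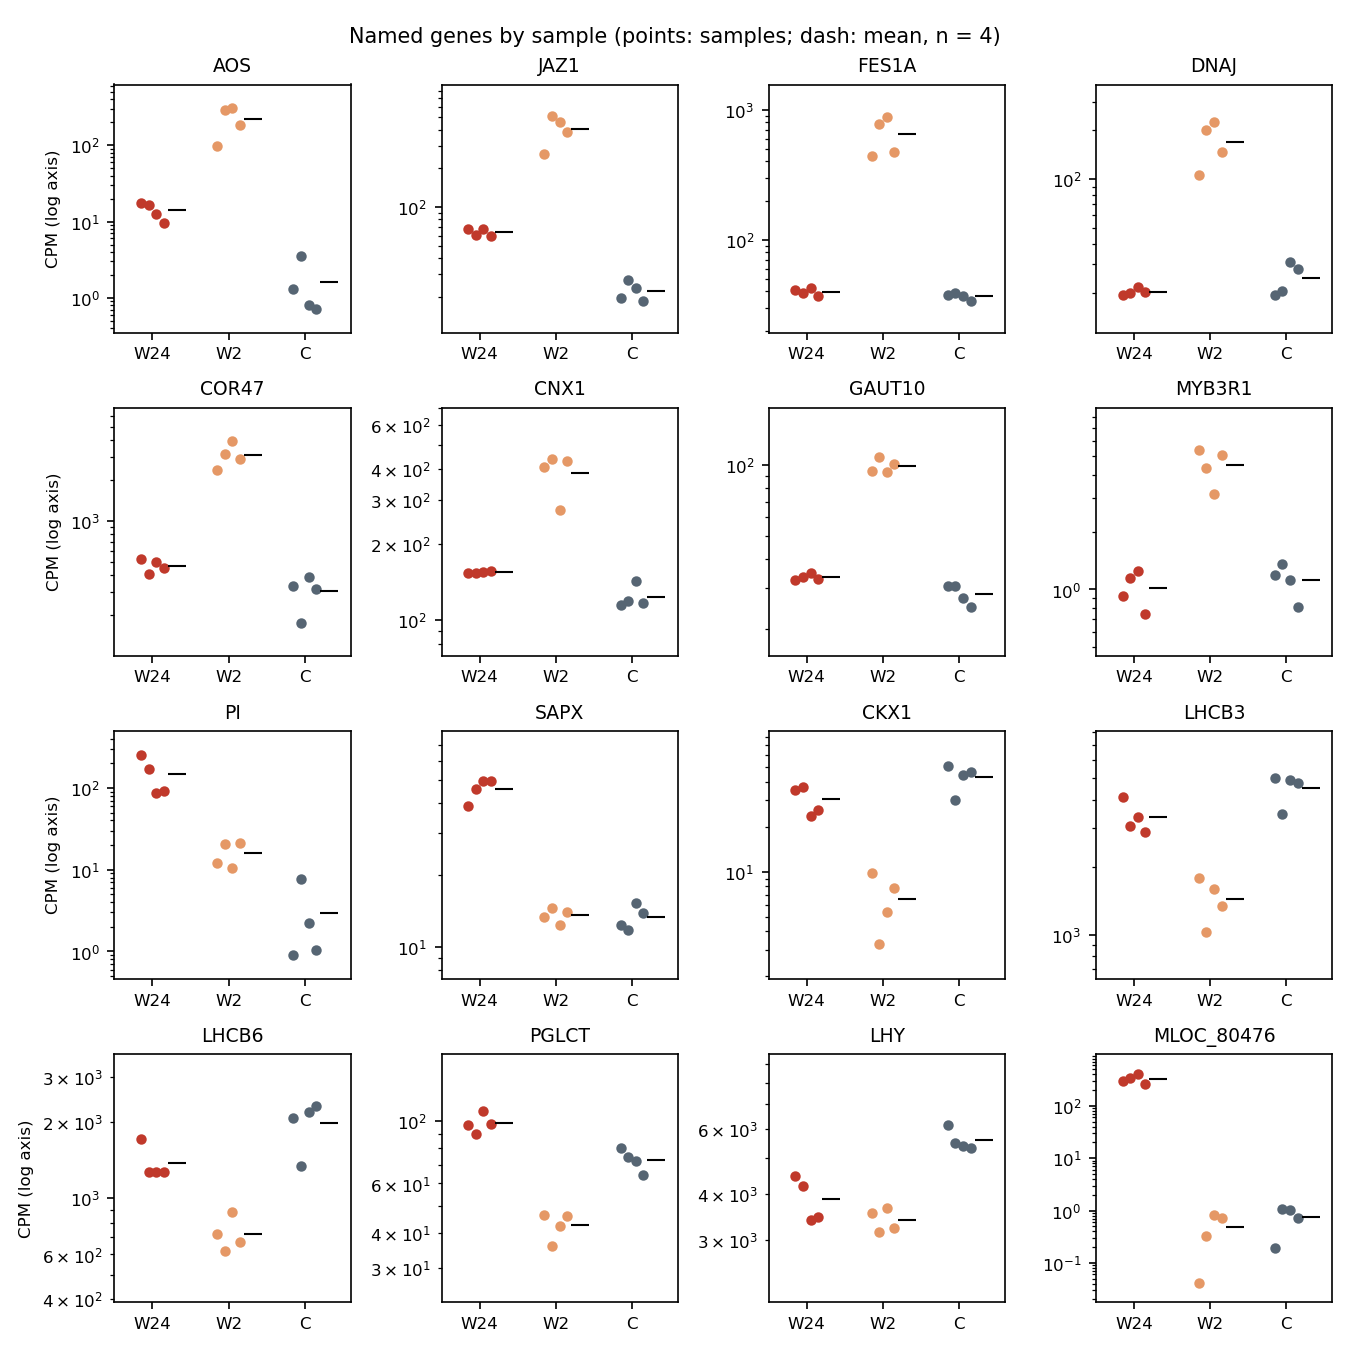
CPM of 16 named genes (log axes) in the 4 W24, 4 W2 and 4 C samples; points are samples and dashes are means. AOS, JAZ1, FES1A and COR47 are highest in W2, PI, SAPX and MLOC_80476 are highest in W24, and CKX1, LHCB3 and LHCB6 are lowest in W2.

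Folding genes of the endoplasmic reticulum, where secreted proteins mature, changed less. All 7 members were tested, and 2 were called lower (28.6%, beside 15.4% of all genes tested) and 0 higher (beside 11.5%). All 7 had negative log2 fold changes (-1.38 to -0.33, median -0.74). PDIL2-1 lay just under the fold limit (-0.97) and was called lower with DESeq2 or its size factors (-1.01 each). The same held without W24 replicate 3 or 4 or W2 replicate 1 or 3. CNX1, the chaperone calnexin, had 154, 153, 156 and 157 CPM in W24 leaves, against 406, 438, 275 and 428 CPM in W2 leaves and 115, 118, 143 and 116 CPM in C leaves. The W24 leaves were nearly identical and lay below every W2 leaf, and the log2 fold change was -1.32 ± 0.12 (adjusted p = 3.77e-10). SDF2, a partner of a J-domain chaperone, fell by 1.38 ± 0.12 (adjusted p = 2.53e-10), with means of 17.1 ± 0.862 CPM in W24 leaves and 44.5 ± 5.59 CPM in W2 leaves. BZIP60, a transcription factor of the unfolded protein response, had 27.5, 26.9, 35 and 26.9 CPM in W24 leaves, against 40.3, 34.0, 35.2 and 37.0 CPM in W2 leaves, ranges that overlapped, and was not called (log2 fold change -0.33 ± 0.13, adjusted p = 0.0233).

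Defence proteins moved in both directions. Of 13 members, 3 were called higher (23.1%, beside 11.5% of all genes tested) and 4 lower (30.8%, beside 15.4%). The other 6 were not called, and the median was -0.55. PI, a serine protease inhibitor of the potato inhibitor I family, had 250.3, 172, 87.2 and 91.0 CPM in W24 leaves, against 12, 20.7, 10.6 and 21.3 CPM in W2 leaves and 0.910, 7.74, 2.23 and 1.03 CPM in C leaves. Every W24 leaf was above every W2 leaf and every W2 leaf above every C leaf, and the log2 fold change, the highest of the list, was 3.22 ± 0.62 over W2 (adjusted p = 7.49e-05) and 5.61 over C (adjusted p = 2.43e-06). BG3, a beta-1,3-glucanase, rose by 1.59 with 4.54, 6.90, 7.24 and 5.23 CPM in W24 leaves, against 1.58, 2.56, 1.88 and 1.95 CPM in W2 leaves and at most 0.527 CPM in C leaves. GSL5, the callose synthase also known as PMR4, rose just past the 2-fold limit, with means of 58.8 ± 5.36 CPM in W24 leaves, 29.4 ± 3.90 CPM in W2 leaves and 63.0 ± 4.38 CPM in C leaves (SD, n = 4), so that its W24 leaves overlapped the C leaves. With DESeq2 or its size factors its log2 fold change was 0.97 and it was not called, nor was it at 0.91 to 0.98 without W24 replicate 3 or 4 or W2 replicate 2 or 3.

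The 4 defence genes that fell were EP3, PBS1, RLK1 and TET8. EP3, a class IV chitinase, had 0.483, 0.307, 1.07 and 0.248 CPM in W24 leaves, against 6.62, 17, 20.9 and 13 CPM in W2 leaves and at most 0.0958 CPM in C leaves. The log2 fold change was -4.83 ± 0.40 (adjusted p = 7.51e-11), and at 24 h EP3 was still called above C. PBS1, a receptor-like cytoplasmic kinase, had 49.3, 49.5, 50.2 and 49.0 CPM in W24 leaves, against 134, 168, 176 and 151 CPM in W2 leaves, with a log2 fold change of -1.67. The groups of RLK1, a receptor-like kinase, and TET8, a tetraspanin of extracellular vesicles, overlapped in their CPM values, with log2 fold changes of -2.47 and -1.43, and RLK1 was not called in a fit of the W24 and W2 libraries alone (adjusted p = 0.0124).

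The hormone list on ethylene, gibberellin, brassinosteroid and cytokinin had 13 members, of which 12 were tested. Calls were near the share of all genes tested: 1 was higher (8.33%, beside 11.5%) and 2 were lower (16.7%, beside 15.4%). The median was -0.33. The called genes were a pair of cytokinin oxidases, which break down cytokinin, and an ethylene receptor. CKX1 had 35.3, 37.0, 23.8 and 26 CPM in W24 leaves, against 9.74, 3.29, 5.38 and 7.79 CPM in W2 leaves and 50.7, 30.4, 44.6 and 46.3 CPM in C leaves. It was low in every W2 leaf and its W24 leaves overlapped the C leaves, with a log2 fold change of 2.22 ± 0.31 over W2 (adjusted p = 9.85e-07). CKX5 went the other way, with 9.81, 5.52, 7.02 and 8.32 CPM in W24 leaves, against 17.9, 23, 21.5 and 31.8 CPM in W2 leaves and 13.7, 6.65, 18.3 and 17.8 CPM in C leaves (log2 fold change -1.62 ± 0.29, adjusted p = 2.54e-05). ETR1, an ethylene receptor, fell by 1.02, and was not called with upper-quartile factors (-0.83), with library size alone (-0.90), without W24 replicate 1 (-0.99) or without W2 replicate 3 (-0.92). CPD, a cytochrome P450 of brassinosteroid synthesis, was not called (0.95, adjusted p = 6.23e-08) and was called higher with upper-quartile factors (1.14), with library size alone (1.06) and without W2 replicate 1 (1.04), so that under both scalings the list had 2 members called higher and 1 lower. GA20OX1, a gibberellin oxidase, was not called (-1.09, adjusted p = 0.0139) and was called lower with DESeq2 (-1.12), without W24 replicate 1 (-1.42) and without W2 replicate 2 (-1.25).

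Wall and aromatic metabolism gave 3 called genes, all lower with TMM factors. Of the 6 tested cell wall members (11 in the list, median -0.50), GAUT10 and GAUT13 of the pectin galacturonosyltransferase family were called. These were 33.3% of the tested members, beside 15.4% of all genes tested called lower. GAUT10 had 32.3, 33.4, 34.8 and 32.9 CPM in W24 leaves, against 94.7, 109, 93.5 and 101 CPM in W2 leaves and 30.6, 30.5, 27.3 and 24.9 CPM in C leaves. Replicates were tight and the log2 fold change was -1.58 ± 0.09 (adjusted p = 5.96e-14), while GAUT13 fell by 1.54 ± 0.08 (adjusted p = 1.54e-14). GAUT8 lay just under the fold limit (-0.99) and was called lower with DESeq2 or its size factors (-1.03 each). The same held without W24 replicate 2 or W2 replicate 1 or 3. Without W24 replicate 1 the median of the wall list was 0.02. FLA11, a fasciclin-like arabinogalactan protein, had 0.965, 1.30, 0.799 and 1.11 CPM in W24 leaves, against 0, 0.822, 0.0598 and 0.267 CPM in W2 leaves, overlapping ranges with a log2 fold change of 1.95 that was not called (adjusted p = 0.0102). It was called higher with upper-quartile factors (2.13), library size alone (2.06), the replicate number as a block (2.06) and without W2 replicate 2 (3.19). Of the 5 shikimate and phenylpropanoid members (median -0.22), DHS was called lower (20%, beside 15.4% of all genes tested). DHS, the entry enzyme of the shikimate pathway, averaged 165 ± 11.8 CPM in W24 leaves, 373 ± 82.1 CPM in W2 leaves and 237 ± 28.8 CPM in C leaves (SD, n = 4), a log2 fold change of -1.18 ± 0.16 (adjusted p = 5.07e-07). With upper-quartile factors DHS had a log2 fold change of -0.99 and was not called, while F3H1, a flavonoid 3'-hydroxylase, was called higher (2.15). F3H1 was not called with TMM factors (1.96, adjusted p = 0.0172), and was called higher in a fit of the W24 and W2 libraries alone (1.97) and without W2 replicate 3 (2.53).

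Nuclear genes of photosynthesis had mostly positive log2 fold changes that were smaller than the fold limit. All 19 members were tested, and 2 were called higher (10.5%, beside 11.5% of all genes tested) and 0 lower (beside 15.4%). Positive log2 fold changes were found for 18 (94.7%, beside 51.9% of all genes tested), with a median of 0.55 beside 0.04, and 10 of them (52.6%, beside 27.7%) had an adjusted p under 0.01. LHCB3, an antenna protein of photosystem II, had 4122, 3044, 3371 and 2877 CPM in W24 leaves, against 1799, 1028, 1597 and 1349 CPM in W2 leaves and 5004, 3475, 4888 and 4771 CPM in C leaves. Every W24 leaf exceeded every W2 leaf and the W24 and C leaves overlapped, with a log2 fold change of 1.22 ± 0.22 of W24 over W2 (adjusted p = 2.29e-05). CURT1B, which bends thylakoid membranes, rose by 1.13 ± 0.16 (adjusted p = 1.35e-06), with 167, 155, 135 and 151 CPM in W24 leaves, against 65.7, 64.0, 73.4 and 75.6 CPM in W2 leaves. LHCB6 and LHCA1, antenna proteins of photosystems II and I, had means of 1379 ± 219 and 1821 ± 374 CPM in W24 leaves, against 726 ± 115 and 1007 ± 222 CPM in W2 leaves (SD, n = 4), with log2 fold changes of 0.93 ± 0.20 (adjusted p = 2.27e-04) and 0.85 ± 0.21 (adjusted p = 7.38e-04) that fell short of the fold limit.

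These genes also mark green leaf tissue. Their summed level was 17527 to 22298 CPM in W24 leaves, 9834 to 14267 CPM in W2 leaves and 21176 to 29967 CPM in C leaves, and no member was at 0 in W24, W2 or C leaves. In bulk leaf RNA, fewer green cells and less of these RNAs per cell cannot be told apart. The plastid-encoded genes, the other set of green leaf markers, did not follow the nuclear sums. They summed to 4511 to 5956 CPM in W24 leaves, 5886 to 11448 CPM in W2 leaves and 6625 to 8539 CPM in C leaves. Set against the same C leaves, W24 had a median log2 fold change of -0.35 over the 19 nuclear members and W2 one of -0.94. In W2 8 of the 19 were called lower, beside 12.6% of all genes tested. Under upper-quartile factors, or without W2 replicate 3, 4 of the 19 nuclear members were called higher in W24 than in W2. Among all genes tested these 2 fits called 2714 of 16948 and 1942 of 17061 higher.

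Of the 67 plastid-encoded genes 51 were tested, and 7 of these were called lower (13.7%, beside 15.4% of all genes tested) and 0 higher (beside 11.5%). Negative log2 fold changes were found for 49 of the 51 (96.1%, beside 48.1% of all genes tested), with a median of -0.69 beside 0.04 for all genes. Against the same C leaves the list had a median of 0.07 in W2 and of -0.63 in W24, with 0 members called in either. The W24 values thus lay below the C level and not nearer to it than those of W2. ATCG00350, the psaA gene of photosystem I, had 72.8, 54.7, 42.8 and 51.6 CPM in W24 leaves, against 240.3, 154, 102 and 92.8 CPM in W2 leaves and 148, 103, 97.5 and 90.0 CPM in C leaves (log2 fold change -1.41 ± 0.34, adjusted p = 7.31e-04). ATCG00480, the atpB gene of the ATP synthase, had 14, 14.5, 13.2 and 14.9 CPM in W24 leaves, against 61.5, 41.3, 20.4 and 21.8 CPM in W2 leaves (-1.35 ± 0.35, adjusted p = 0.00166). The W2 leaf of replicate 1 was the highest for both genes, and without it ATCG00480 had a log2 fold change of -0.99 and was not called, while the list had 2 called members. Without W2 replicate 3 the list had 12 called members, and without W24 replicate 3 or with upper-quartile factors it had 4. The share of all counts in plastid-encoded genes was 0.470 to 0.577% in W24 leaves, 0.514 to 1.13% in W2 leaves and 0.583 to 0.855% in C leaves, and W24 and W2 overlapped (exact permutation p = 0.114, adjusted 0.171). These libraries were made by poly(A) selection, and the part of that step in the plastid values was not tested.

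Pigment, starch and redox genes gave few calls. In chlorophyll, carotenoid and tocopherol synthesis 0 of 9 members were called with edgeR or DESeq2, with a median of 0.27 (4 had an unadjusted p under 0.05, all higher in W24). In starch and sugar metabolism 1 of 11 tested members (12 in the list) was called higher and 1 lower, with a median of 0.33. Each was 9.09% of the tested members, beside 11.5% higher and 15.4% lower among all genes tested. PGLCT, the glucose exporter of the plastid, had 96.5, 90.2, 109 and 97.7 CPM in W24 leaves, against 46.4, 35.9, 42.5 and 45.8 CPM in W2 leaves and 80.3, 74.5, 71.9 and 64.3 CPM in C leaves, a rise of 1.20 ± 0.11 over W2 (adjusted p = 4.32e-10). GWD1, the dikinase that starts starch breakdown, fell by 1.07, although its W24 and W2 leaves overlapped. Its log2 fold change was -0.88 with upper-quartile factors, -0.95 with library size alone and -0.996 to -0.918 without any one of W24 replicates 1 and 3 and W2 replicates 2 and 3, and in these 6 fits it was not called. MEX1, the maltose exporter of the plastid, lay just under the fold limit (0.99, adjusted p = 2.63e-04) and was called higher in 7 alternatives at log2 fold changes of up to 1.18, so that with upper-quartile factors or library size alone the list had 2 members called higher and 0 lower.

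SAPX, the stromal ascorbate peroxidase that removes hydrogen peroxide in chloroplasts, was the called gene among 12 redox members (median 0.27). It made up 8.33% of the members, beside 11.5% of all genes tested called higher. It had 38.8, 45.5, 49.5 and 49.4 CPM in W24 leaves, against 13.4, 14.5, 12.4 and 14 CPM in W2 leaves and 12.4, 11.8, 15.2 and 13.9 CPM in C leaves. W2 and C leaves shared a range and all W24 leaves lay far above it, with a log2 fold change of 1.76 ± 0.12 over W2 (adjusted p = 1.39e-12) and 1.78 over C (adjusted p = 2.54e-11).

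Clock genes moved in both directions, mostly within the fold limit. Of 5 members 1 was called lower (20%, beside 15.4% of all genes tested) and 0 higher (beside 11.5%). The median was 0.04, and below 0 without any one of W24 replicate 4 and W2 replicates 1, 2 and 4, at its lowest -0.11. LHY, a morning factor of the clock, had 4466, 4188, 3389 and 3466 CPM in W24 leaves, against 3542, 3145, 3645 and 3217 CPM in W2 leaves (log2 fold change 0.19 ± 0.13, adjusted p = 0.199). PRR7 and GI, which act later in the cycle, had log2 fold changes of 0.42 ± 0.09 and -0.86 ± 0.13, each with an adjusted p under 0.01 and under the fold limit. The called member was LZF1, a B-box factor of light signalling, with 5.99, 4.14, 4.31 and 4.30 CPM in W24 leaves, against 9.83, 10.9, 15.8 and 9.58 CPM in W2 leaves and 4.02, 3.38, 5.66 and 5.84 CPM in C leaves (log2 fold change -1.30 ± 0.18, adjusted p = 4.55e-07).

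Of 17 cytosolic ribosomal proteins 0 were called with edgeR or DESeq2 (4 had an unadjusted p under 0.05: 1 higher and 3 lower in W24), and the log2 fold changes ran between -0.55 and 0.33 (median -0.17, and 0.02 with upper-quartile factors). Among 9 ribosome assembly and translation factors 0 were called with edgeR and 1 was called with DESeq2 (6 had an unadjusted p under 0.05: 3 higher and 3 lower in W24), with a median of -0.39. Markers of dividing tissue were at low levels: the 19 replication and mitosis genes summed to 107 to 126 CPM in W24 leaves, 126 to 145 CPM in W2 leaves and 128 to 134 CPM in C leaves. Of these, 1 of 6 tested replication genes (16.7%) and 1 of 8 tested mitosis genes (12.5%) were called, both lower. The share of all genes tested that was called lower was 15.4%. With upper-quartile factors the replication gene RNR1 (1.01) and the mitosis gene PDS5B (1.13) were called higher. The mitosis gene MIS12 was called lower without W24 replicate 4 (-1.21) or W2 replicate 3 (-1.02). MCM5, a subunit of the replicative helicase, averaged 0.858 ± 0.253 CPM in W24 leaves and 2.80 ± 0.887 CPM in W2 leaves, and MYB3R1, a factor of genes for mitosis, 1.02 ± 0.226 CPM in W24 leaves and 4.49 ± 0.986 CPM in W2 leaves (SD, n = 4; log2 fold changes -1.69 ± 0.41 and -2.15 ± 0.21). The epidermal cuticle list gave 0 calls among 2 tested members of 4 with edgeR or DESeq2 (1 had an unadjusted p under 0.05). CER1, an enzyme of wax alkane synthesis, had 0.603, 0.230, 0.355 and 0.402 CPM in W24 leaves, against 0, 0.0457, 0.0598 and 0.229 CPM in W2 leaves, and missed the threshold (log2 fold change 2.15 ± 0.72, adjusted p = 0.0108), which it passed with upper-quartile factors (2.33), with library size alone (2.26), without W24 replicate 2 (2.31) or without W2 replicate 4 (3.19). SHN1, a factor of wax synthesis, had 1 count in a W24 library, 0 in W2 and 0 in C.

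Beyond the lists, and among called genes averaging at least 5 CPM, the genes of known partner with the largest falls were partners of AT2G38170, AT1G18310 and AT5G67060. AT2G38170 is CAX1, a proton and calcium exchanger of the vacuole, and its barley partner MLOC_17450 had 4.06, 3.68, 3.86 and 2.94 CPM in W24 leaves, against 44.2, 134, 153 and 81.0 CPM in W2 leaves and 3.64, 4.26, 2.5 and 2.52 CPM in C leaves. It fell by 4.83 ± 0.28 on the log2 scale (adjusted p = 1.41e-13) to within the C range. MLOC_25343 (AT1G18310) fell by 4.47, with 3.70, 3.68, 4.88 and 3.81 CPM in W24 leaves, against 54.7, 96.0, 144 and 61.9 CPM in W2 leaves. MLOC_16429 (AT5G67060, the bHLH factor HECATE1) fell by 4.45, with means of 0.691 ± 0.247 CPM in W24 leaves and 14.9 ± 4.28 CPM in W2 leaves (SD, n = 4).

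The largest rises of this kind were those of MLOC_21153 (AT2G23060), MLOC_15936 (AT1G32520) and MLOC_11508 (AT1G61820, the beta-glucosidase BGLU46). MLOC_21153 had 29.8, 16.8, 27.4 and 27 CPM in W24 leaves, against 3.83, 1.23, 3.98 and 4.20 CPM in W2 leaves and 19, 25.6, 26.5 and 22.1 CPM in C leaves, with a log2 fold change of 2.91 ± 0.28 (adjusted p = 1.05e-09). MLOC_15936 and MLOC_11508 rose by 2.56 ± 0.30 and 2.46 ± 0.23, with means of 27.6 ± 11.3 and 27.8 ± 5.69 CPM in W24 leaves, against 4.65 ± 1.39 and 5.03 ± 0.163 CPM in W2 leaves and 32.2 ± 6.05 and 19.4 ± 8.02 CPM in C leaves (SD, n = 4). For all 3 risen genes the W24 and C leaves overlapped and the W2 leaves lay below both.

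Wider changes were seen in genes with no partner at hand, of which the 2 largest in each direction at such levels are given. These came from 15120 genes tested, against 1828 with a partner, and a larger set can hold wider extremes by its size alone. MLOC_80476 had 297, 337, 407 and 265 CPM in W24 leaves, against 0.0416, 0.32, 0.838 and 0.725 CPM in W2 leaves and 0.192, 1.06, 1.03 and 0.710 CPM in C leaves. It was low in every W2 and C leaf and abundant in every W24 leaf, with a log2 fold change of 9.30 ± 0.45 over W2 (adjusted p = 8.83e-15) and 8.72 over C (adjusted p = 4.76e-13). MLOC_5646 had 11.1, 8.70, 11.9 and 11.2 CPM in W24 leaves, against 2 counts over the 4 W2 libraries and at most 0.0479 CPM in a C leaf. Its ratio of W24 to W2 was 567, with an exact 95% counting interval of 157 to 4685. In the other direction, MLOC_74793 had 0, 0.115, 0.0444 and 0 CPM in W24 leaves, against 14.3, 23.3, 36.4 and 17.3 CPM in W2 leaves, with no count in C (log2 fold change -9.03 ± 0.52, adjusted p = 4.62e-13). MLOC_56194 had 3 counts over the W24 libraries and 1427 over the W2 libraries, a ratio of W2 to W24 of 477 (interval 163 to 2315), and no count in C.

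The 3 terpene synthase genes that the study names were near or below detection in these leaves, and 0 of the 3 were called with edgeR (0 at an unadjusted p under 0.05), while DESeq2 called MLOC_56812 and MLOC_76989 lower. MLOC_76989 had 0 counts over the W24 libraries and 21 over the W2 libraries, which is at least 7.02-fold lower in W24 taking 3 counts over all 4 libraries as the floor, while the exact 95% counting interval of the ratio of W2 to W24 began at 5.22. MLOC_56812 had 3 counts over the W24 libraries and 30 over the W2 libraries, a ratio of W2 to W24 of 10.02 (exact 95% counting interval 3.12 to 51.3). MLOC_13618 had 16 counts over the W24 libraries and 3 over the W2 libraries, a ratio of W24 to W2 of 5.32 (interval 1.52 to 28.5).

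The course of wounding between 2 h and 24 h was then set beside that of mite feeding, which shares no library with it. Wounding was a single event, whereas mites fed continuously and, by the study's account, could need up to several hours to begin feeding. The O2 samples lay 0.254 to 0.397 and the T2 samples 0.333 to 0.369 from the control profile, against 0.865 to 1.05 in W2. The courses thus started from unlike states, and the part of this in the interactions was not tested. Time by treatment interactions were called for 8235 genes (48.6%) between wounding and O. pratensis, with the larger change after wounding in 3701 (21.8%) and the smaller in 4534 (26.8%), where larger means higher at 24 h relative to 2 h. They were called for 6542 genes (38.6%) between wounding and T. urticae, with 2750 larger (16.2%) and 3792 smaller (22.4%) after wounding (edgeR, same thresholds). Of the 2613 genes that fell after wounding, 972 (37.2%) were called higher and 127 (4.86%) lower in O24 than in O2, beside 18.3% and 13.1% of all genes tested. For T. urticae 478 (18.3%) were called higher and 32 (1.22%) lower in T24 than in T2, beside 10% and 3.26%. The median log2 fold change of these genes was -1.68 over time after wounding, 0.71 with O. pratensis and 0.41 with T. urticae. Of the 1946 genes that rose after wounding, 354 (18.2%) were called higher and 676 (34.7%) lower in O24 than in O2, and 260 (13.4%) higher and 250 (12.8%) lower in T24 than in T2. Mite numbers also differed between the time points, 200 at 24 h and 400 at 2 h, and their part in these interactions was not tested. With upper-quartile factors 56.0% of the O. pratensis interactions were positive, against 44.9% with TMM, and for T. urticae 54.4%, against 42.0%.

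**Figure D5:**
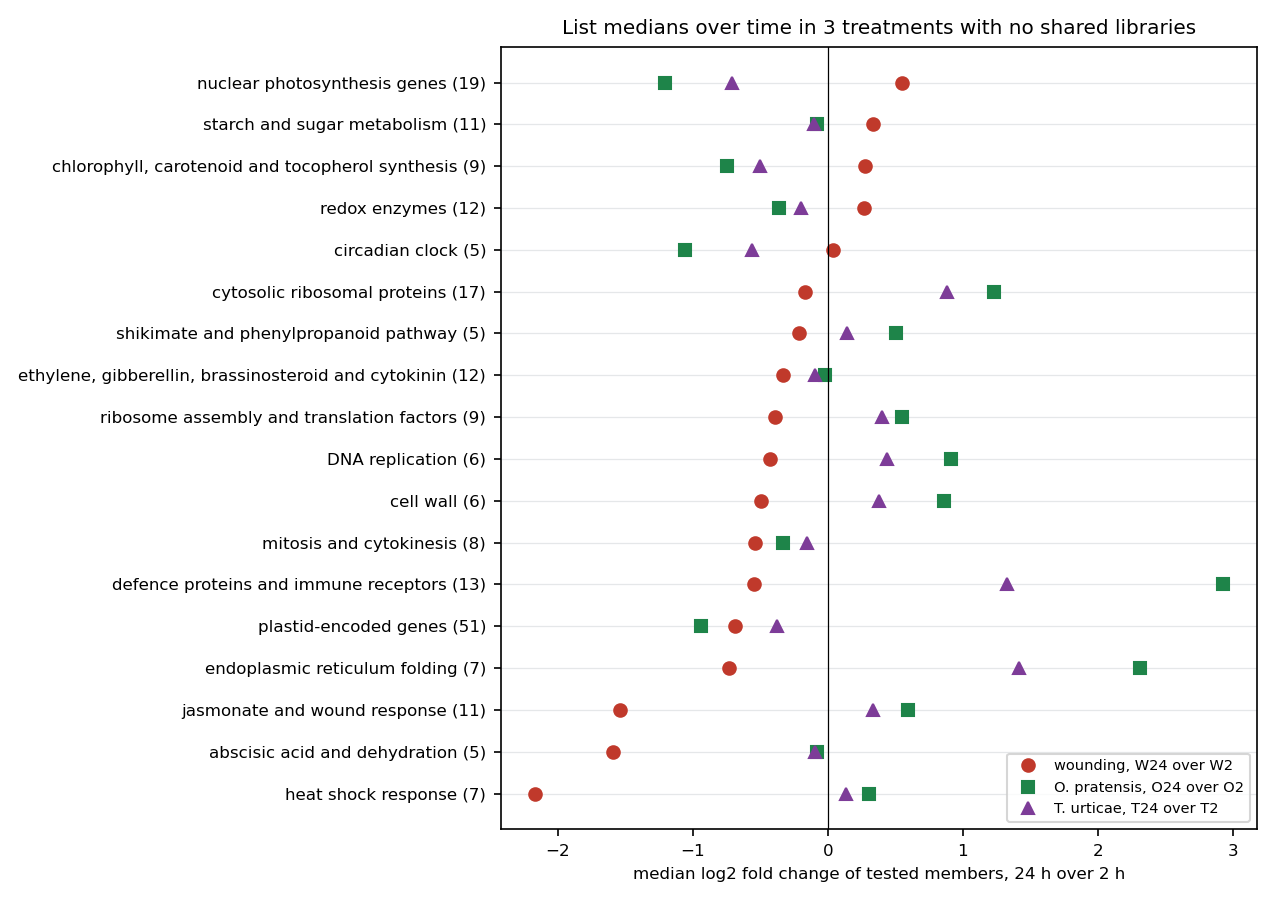
Median log2 fold change of 24 h over 2 h (x axis) of the tested members of all gene lists but the cuticle list (y axis) for wounding (circles), O. pratensis (squares) and T. urticae (triangles). Nuclear photosynthesis genes lie at 0.55 for wounding, -1.20 for O. pratensis and -0.71 for T. urticae, and folding genes of the endoplasmic reticulum at -0.74, 2.31 and 1.42.

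The gene lists can be set side by side in the same way. For nuclear photosynthesis the interaction was called in 17 of 19 members with O. pratensis and 13 of 19 with T. urticae. All had the larger value after wounding, beside 21.8% and 16.2% of all genes tested. For folding genes of the endoplasmic reticulum it was called in 7 of 7 and 6 of 7. For cytosolic ribosomal proteins it was called in 15 of 17 and 7 of 17. In both lists all had the smaller value after wounding, beside 26.8% and 22.4% of all genes tested. Defence genes had a median of -0.55 over time after wounding, 2.92 with O. pratensis and 1.33 with T. urticae. Jasmonate and wound genes had medians of -1.54, 0.59 and 0.33.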

How the data were processed

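Total leaf RNA was sequenced as stranded poly(A) libraries. The authors aligned reads with STAR to the Ensembl barley assembly ASM3268v1 and counted uniquely aligned reads per gene with HTSeq, and the deposited values are raw counts in 1 table. The submitters' processing notes name STAR 2.5.1b and HTSeq 0.6.0. Here counts were filtered with filterByExpr (minimum count 10), scaled by TMM factors and tested with edgeR 4.0.16 (quasi-likelihood, robust, 1 mean per group over all 28 samples, R 4.3.3), and the 16948 genes tested held 99.97% of the counts. Calls needed an adjusted p (Benjamini-Hochberg) under 0.01 together with a log2 fold change beyond 1, as in the study's methods. Library measures were compared by an exact two-sided permutation test. DESeq2 1.42.0, other scalings and filters, a test against the fold limit and leaving out each library were alternatives.

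Members and gene lists were chosen with earlier results of these data known. Named genes were key genes set for each list, up to 2 called members per list with the largest changes, no overlap of W24 and W2 and a mean of at least 1 CPM, the 3 largest such changes in each direction among genes with a partner outside the lists and the 2 largest among genes with none (mean of at least 5 CPM), and 3 terpene synthases. Further list members, in lists with many calls and with few, were named after their values were seen. Examples are ERF4, MPK3, AHA1, ABF3, BG3, TIL, ETR1, GWD1 and GSL5. Names rest on a partial list of orthologues: 1998 of its pairs were in the table and 1828 were tested. The table's 25592 identifiers had no match in the RefSeq list used here, so no coordinates or sequences are given. Data were simulated from these counts for W24 against W2 (16715 genes). There edgeR called 97.6% of 85 genes changed by 2 on the log2 scale and 100% of 115 changed by 3, with 0 false calls. DESeq2 made 2 false calls, as did the edgeR interaction test with O. pratensis. All other genes were simulated without change, so the simulation does not cover errors of scaling where many genes change. Intervals on single genes cover counting error only. P-values measure the spread between leaves of 1 experiment.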

Additional observations from a re-analysis of the deposited data

Results flagged for a closer look

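In groups of 4 samples, a sample was set apart where its gap to the nearest other was larger, relative to the range of its group, than Dixon's 95% critical value, which chance gives in about 1 of 20 groups. This held in 16 of the 104 groups examined. W24 replicate 1 had 32.6% of its counts in the 100 most abundant genes and 427 genes that held 50% of the counts, W2 replicate 3 had 543 such genes, and W24 replicate 3 lay 0.477 from the control profile.

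Among single genes, the sample apart was in W24 for SAG21 (39.3 CPM), LZF1 (5.99 CPM), SHN1 (0.0402 CPM), MCM5 (0.483 CPM), BZIP60 (35 CPM), LHCB6 (1707 CPM), MLOC_15936 (44.3 CPM) and MLOC_25343 (4.88 CPM). It was in W2 for GAUT13 (39.2 CPM), LHCA1 (1337 CPM), MLOC_21153 (1.23 CPM) and MLOC_5646 (0.0914 CPM). For SHN1 and MLOC_5646 the other 3 libraries had no count, so that any stray count sets a library apart.

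The change over time after wounding differed from that under mites, by the interaction test, in 8235 genes for O. pratensis and 6542 genes for T. urticae. Folding genes of the endoplasmic reticulum had 7 and 6 of 7 members with a called interaction, all with the smaller value after wounding. With T. urticae this held for 4 of 5 tested dehydration genes. With O. pratensis it held for 15 of 17 ribosomal protein genes, and 17 of 19 nuclear photosynthesis genes had the larger value after wounding. Among all genes tested, 26.8% had the smaller and 21.8% the larger value with O. pratensis. With T. urticae these shares were 22.4% and 16.2%.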

How the results depend on the processing

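The number of genes called between W24 and W2 was 4559, and 9623 with no fold minimum and 2155 when tested against the fold limit itself (glmTreat; 585 higher and 1570 lower). It was 3251 to 4825 with DESeq2, other scalings, other filters, an adjusted p under 0.05 or the W24 and W2 libraries alone, and 4265 to 4862 without any one library. Leaving out one library gave 7977 to 8375 interactions with O. pratensis, 6241 to 6735 with T. urticae, 43 to 55 called list members (45 with all libraries, plastid-encoded genes included), and a difference in distance from the control profile of -0.57 to -0.50. The difference in genes holding 50% of the counts was -140.2 to -90.1, with no overlap in any of these, though without a W24 library the exact permutation test of 3 against 4 no longer passed 0.05. The difference in genes with a count was 78.8 to 335.8, in the share of the 100 most abundant genes 4.44 to 5.68, in the plastid share -0.323 to -0.116 (-0.323 without W2 replicate 3, then without overlap) and in total counts, in units of 1000000, -4.04 to 1.12 (1.12 without W2 replicate 3). The causes were not tested. W24 and W2 samples of the same replicate number did not deviate together (correlations of -0.11 to 0.08). The study used randomized blocks, and the labels do not say whether the replicate numbers mark them, so the numbers were not treated as pairs. With the replicate number as a block 4564 genes were called, 4509 of them shared, with 8271 and 6553 interactions. Of 46 genes named by the fixed rule, 42 to 46 kept their call under each alternative in which they were tested, and 0 changed direction. That rule mostly took called genes with the largest changes, so kept calls were largely set by the choice. Outside the 46 are GSL5, TIL, ETR1, GWD1 and RLK1, whose lost calls stand beside them. So are CPD, GA20OX1, FLA11, F3H1 and MEX1, whose gained calls stand beside them. In some alternatives PDIL2-1, GAUT8, KRR1, MIS12, TLP and BAG6 were also called lower, and PDS5B and RNR1 higher. Plastid-encoded genes both gained and lost calls. The 3 terpene synthases, at a few counts per library, were not called with edgeR, while DESeq2 called 2 of them. The part of depth and of the spread between leaves in this was not tested.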

Other observations

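The balance of rises and falls between W24 and W2 differed with the level of the gene. Among genes averaging under 1 CPM, 18.2% were called higher and 10.9% lower in W24, and among those of 100 CPM or more 6.64% were called higher and 20.1% lower. Genes with an Arabidopsis partner at hand were called in 22% of 1828 cases, and genes without one in 27.5% of 15120. W24 replicates also varied less than W2 replicates, with a median SD per gene of 0.173 on the log2 scale in W24, 0.232 in W2 and 0.201 in C.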
